A study of Mus musculus with 9 samples.

Results

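The comparison of GXNI-treated hearts with sham hearts covers 6 of the 9 mouse libraries of the study, 3 labelled GXNI and 3 labelled sham, and asks which part of the transcriptional response to ischemia and reperfusion was still present in hearts of mice that had received the drug. All mice were wild-type male C57BL/6J mice of 8 to 10 weeks. In the GXNI group the left anterior descending coronary artery was tied for 30 min and released for 24 h, and Guanxinning injection, a herbal preparation for ischemic heart disease, was given at 9 mL/kg into the tail vein within 10 min of the onset of ischemia. In the sham group the chest was opened and the suture was passed without being tied, and saline was injected. Of the MIRI group, which had the same ischemia and reperfusion with saline, 1 library enters the comparisons, as explained below, and all 3 enter the normalization and the principal components. Sham mice received no GXNI, so that the injury and the drug cannot be told apart in this comparison.

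In the first day after reperfusion, the injured ventricle transcribes immediate early genes, whose transcription factors respond to growth factor and stress signals, and stretched cardiomyocytes at the border of the infarct reactivate fetal and cytoskeletal genes. Dying cells release signals that recruit neutrophils and then monocytes through CXC and CC chemokines, and fibroblasts and endothelial cells remodel the matrix with matricellular proteins, cross-linking enzymes and proteases. Surviving cardiomyocytes lower genes of the sarcomere, of ion channels and of oxidative metabolism.

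Each library held between 17119454 and 22811295 reads assigned to genes. Values are CPM, read counts scaled to the library total after TMM normalization. Calls required edgeR to give at least 1.5-fold and a p no larger than 0.01 before adjustment, the limits that the study itself set. Every group held 3 libraries, and log2 fold changes are given with an SE. This SE is the absolute log2 fold change divided by the square root of the edgeR F statistic. The labels give the cell type as cardiomyocytes and the tissue as heart, and the libraries held the markers of a whole heart. The summed CPM of 6 endothelial markers was 540.7 to 806.2 in sham and 604.0 to 1015 in GXNI hearts, beside 40203 to 42897 and 29821 to 36040 CPM of 7 ventricular cardiomyocyte markers. In such bulk tissue, fewer cells of a type and less RNA per cell cannot be told apart.

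The 3 GXNI libraries stood far apart from each other. On the first principal component of all 9 libraries, which held 69.9% of the variance, sham hearts lay between -48.0 and -42.6, GXNI 1 at -34.5, GXNI 2 at 13.3 and GXNI 3 at 76.5, beyond MIRI 1 (49.2) and MIRI 3 (67.2), whereas the library labelled MIRI 2 lay at -34.2. The study's supplementary fold changes were matched by these counts when the libraries labelled MIRI 2 and GXNI 3 changed places, and not under the deposited labels. Therefore, fold changes are given by the labels and beside them for a second grouping, called the published grouping, in which GXNI 1, GXNI 2 and the library labelled MIRI 2 were compared with the same 3 sham hearts. Promoter shares are by the labels alone. Both groupings share 2 treated hearts and all sham hearts, and neither is independent evidence for the other. Which grouping holds the true treatment was not tested. Below, a treated heart is a heart compared with sham in either grouping. The library labelled MIRI 2 is thus counted among them, although by its label it received saline and no GXNI.

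By the labels, 392 of 14695 tested genes (2.67%) were called higher and 226 (1.54%) lower in GXNI than in sham hearts, and in the published grouping 315 of 14599 genes (2.16%) were called higher and 228 (1.56%) lower. No gene passed an adjusted p of 0.05 by the labels with edgeR (smallest 0.192), while 2914 genes had an unadjusted p under 0.05 and DESeq2 gave 834 genes an adjusted p of at most 0.05. Without GXNI 1, edgeR gave 2749 genes an adjusted p of at most 0.05 by the labels (smallest 0.0121), without GXNI 3 it gave 2, without any other single library 0, and without the low-count filter 18. By the same thresholds DESeq2 called 994 genes (3.56%) higher and 407 (1.46%) lower by the labels. With edgeR 13 genes passed the adjusted threshold in the published grouping, 8 without sham 1, 0 without sham 2 or sham 3, 2 without MIRI 2, 173 without GXNI 1 and 443 without the low-count filter. GXNI 3 was the farthest of the 3 GXNI libraries from sham in 324 of the 392 genes called higher (82.7%), with a median log2 difference of 1.61, compared with 1.05 in GXNI 2 and 0.68 in GXNI 1. The number of calls depended on single libraries. It was 1603 (10.7%) higher and 1062 (7.08%) lower without GXNI 1, 237 and 108 without GXNI 2, 316 (2.11%) and 219 (1.46%) without GXNI 3, and 83 to 118 higher and 90 to 150 lower without 1 sham library. These shares over all genes are the background of each list count below. A list with few calls can lie near them, above all without GXNI 1.

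**Figure D1:**
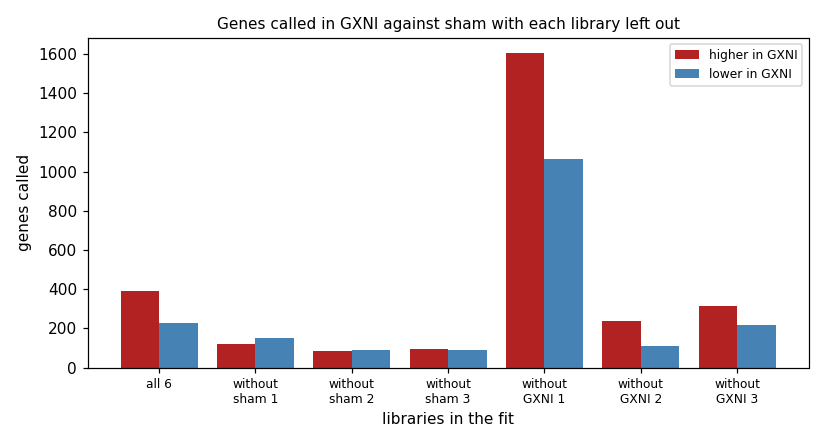
Number of genes called higher (red bars) or lower (blue bars) in GXNI than in sham hearts by the deposited labels, with all 6 libraries and with each library left out in turn. Leaving out GXNI 1 raised the calls to 1603 higher and 1062 lower, and leaving out any sham library lowered them to at most 118 and 150.

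Immediate early genes, the rapidly induced transcription factors and feedback regulators, were the list with the most calls. Of 25 tested members 11 were called higher and 0 lower by the labels, and likewise 11 higher and 0 lower in the published grouping. By the labels the count was 2 to 3 without 1 sham library, 16 without GXNI 1, 14 without GXNI 2 and 11 without GXNI 3, and DESeq2 called 19. In the published grouping it was 7 without GXNI 1 and 8 to 11 without any other library. Their median log2 fold change was 1.88 by the labels and 0.95 in the published grouping, beside 0.01 over all genes tested in each. By the labels 17 of the 25 members did not overlap between the groups with GXNI higher, where 13.8% of all genes did so, and in the published grouping 13, where 11.1% did so. The list was raised in each treated heart, with a median log2 difference from the sham mean of 0.97 in GXNI 1, 0.97 in GXNI 2, 2.75 in GXNI 3 and 0.68 in the library labelled MIRI 2.

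Nr4a1, an orphan nuclear receptor of the NR4A family, was at 8.91, 14.6 and 10.1 CPM in sham 1 to 3 and at 119, 43.3 and 78.8 CPM in GXNI 1 to 3. All 3 GXNI hearts lay above all sham hearts, and GXNI 1, the nearest to sham on the first principal component, was the highest. The difference was 2.85 ± 0.40 (log2 scale, SE, edgeR adjusted p = 0.205) by the labels, 7.20-fold, and 2.77 ± 0.38 (log2 scale, SE, edgeR adjusted p = 0.0624) in the published grouping, with 67.7 CPM in the library labelled MIRI 2. The call held in all 6 fits with 1 library left out, from 2.46 (without GXNI 1) to 3.15 (without GXNI 2). Nr4a2 and Nr4a3, the other members of the family, were called higher in both groupings.

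Jund, an AP-1 subunit, was at 27.0, 32.5 and 34.7 CPM in sham and 56.8, 56.8 and 84.9 CPM in GXNI 1 to 3. The groups did not overlap, and the difference of 1.09 ± 0.21 (log2 scale, SE, edgeR adjusted p = 0.219) held in every fit with 1 library left out. It was 0.95 ± 0.13 (log2 scale, SE, edgeR adjusted p = 0.0624) in the published grouping.

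Fosb, which pairs with JUN proteins, was at 0.215, 0.545 and 0.586 CPM in sham and 1.998, 4.78 and 20.1 CPM in GXNI 1 to 3. Egr2, a zinc finger factor, was at 0.268, 0.297 and 0.373 CPM in sham and 1.25, 2.46 and 11.9 CPM in GXNI. In both genes every GXNI heart exceeded every sham heart, but GXNI 3 was several times above the other two. Fosb differed by 4.30 ± 0.97 (log2 scale, SE, edgeR adjusted p = 0.219) by the labels and by 2.53 ± 0.65 (SE) in the published grouping. Egr2 differed by 4.04 ± 0.95 (log2 scale, SE, edgeR adjusted p = 0.219) and, in the published grouping, by 2.39 ± 0.42 (SE). Without GXNI 3 the log2 fold changes fell to 2.90 for Fosb and 2.55 for Egr2.

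Btg2, an antiproliferative gene, was at 41.6, 27.8 and 34.0 CPM in sham and 87.7, 60.5 and 218 CPM in GXNI 1 to 3. Dusp5, a nuclear phosphatase of ERK, was at 3.87, 4.70 and 7.51 CPM in sham and 17.3, 11.0 and 69.4 CPM in GXNI 1 to 3. The groups again did not overlap, and GXNI 2 was the lowest GXNI heart in both genes. The log2 fold changes were 1.84 ± 0.48 (SE) for Btg2 and 2.61 ± 0.72 (SE) for Dusp5, and 1.06 ± 0.19 (SE) and 1.34 ± 0.29 (SE) in the published grouping. Without GXNI 3 they were 1.11 and 1.41.

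Fos, chosen after its values were seen, was at 3.33, 0.644 and 3.52 CPM in sham and 11.1, 11.2 and 48.1 CPM in GXNI 1 to 3, a log2 fold change of 3.25 ± 0.83 (SE) by the labels, 2.17 without GXNI 3 and 2.03 ± 0.51 (SE) in the published grouping. Egr1, a related growth factor response gene, was at 4.99, 5.25 and 11.5 CPM in sham and 11.1, 23.1 and 135 CPM in GXNI and was not called in either grouping. Sham 3 lay above GXNI 1 in that gene. The calls of Fos, Fosb, Egr2, Btg2 and Dusp5 by the labels were each lost without sham 1, without sham 2 or without sham 3, with log2 fold changes over the 6 fits of 2.17 to 3.59 for Fos, 2.90 to 4.78 for Fosb, 2.55 to 4.50 for Egr2, 1.11 to 2.17 for Btg2 and 1.41 to 3.03 for Dusp5. Fosb was, in the published grouping, lost without sham 1, sham 2, sham 3 or GXNI 2 (log2 fold change over the 6 fits 1.73 to 2.90) and Fos without GXNI 1 (log2 fold change over the 6 fits 1.57 to 2.36).

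Atf3, a stress-induced repressor of the ATF/CREB family, was at 3.11, 2.72 and 2.88 CPM in sham and 15.6, 13.8 and 120.5 CPM in GXNI 1 to 3, with 13.4 CPM in the library labelled MIRI 2. GXNI 1, GXNI 2 and MIRI 2 lay close together, and GXNI 3 alone was far higher. The difference was 4.12 ± 0.94 (log2 scale, SE, edgeR adjusted p = 0.219) by the labels and 2.30 ± 0.15 (log2 scale, SE, edgeR adjusted p = 0.00444) in the published grouping, where Atf3 passed the adjusted threshold. By the labels its call was lost without any 1 of the sham libraries (log2 fold change over the 6 fits 2.35 to 4.56), and its log2 fold change without GXNI 3 was 2.35.

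**Figure D2:**
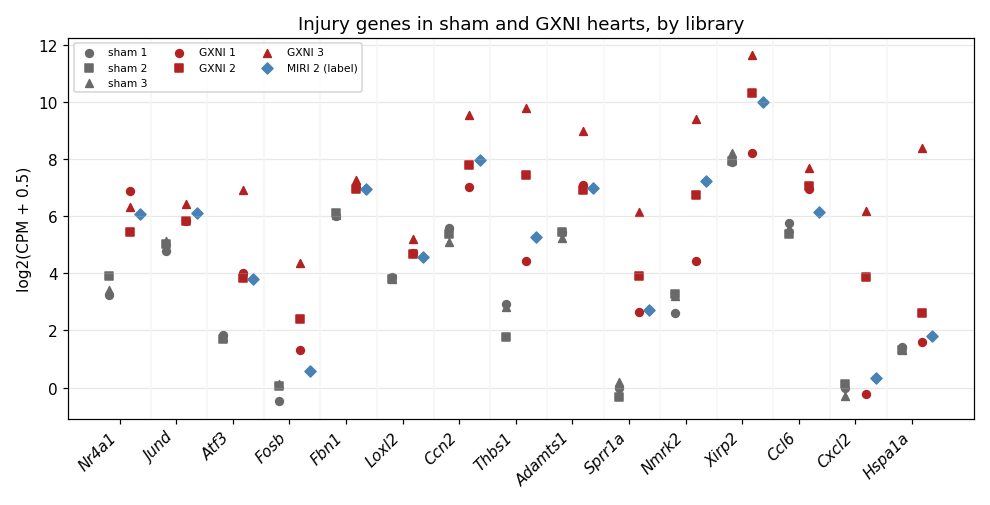
CPM of 15 injury genes in each library, as log2(CPM + 0.5) on the vertical axis, with sham hearts in grey, hearts labelled GXNI in red (circle, square and triangle for replicates 1, 2 and 3) and the library labelled MIRI 2 as a blue diamond. Fbn1, Loxl2 and Jund were raised to a like extent in every GXNI heart and in the library labelled MIRI 2, whereas Hspa1a and Cxcl2 were far highest in GXNI 3.

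The genes of the matrix followed. Of 24 matrix and matricellular genes 8 were called higher and 0 lower by the labels, with a median log2 fold change of 1.03, and 8 higher and 0 lower in the published grouping, with a median of 0.78. By the labels 4 were called without any 1 sham library and 13 without GXNI 1, and in the published grouping 6 to 10 with 1 library left out. The list median lay above the sham mean in each treated heart, by 0.62 in GXNI 1, 0.71 in GXNI 2, 1.49 in GXNI 3 and 0.47 in the library labelled MIRI 2. The summed CPM of 6 fibroblast markers moved differently. It was 968.2 to 1178 in sham hearts, 1622 in GXNI 1, 769.2 in GXNI 2, 582.8 in GXNI 3 and 962.8 in the library labelled MIRI 2.

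Fbn1, the microfibril protein fibrillin-1, was at 64.4, 68.4 and 65.9 CPM in sham and 126, 124 and 153 CPM in GXNI 1 to 3, with 124 CPM in the library labelled MIRI 2. Each treated heart was close to the next, and none came near a sham heart. The difference was 1.03 ± 0.13 (log2 scale, SE, edgeR adjusted p = 0.205), 2.04-fold, by the labels and 0.91 ± 0.09 (log2 scale, SE, edgeR adjusted p = 0.0224) in the published grouping, and the call held in every fit with 1 library left out in both.

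Loxl2, an enzyme that cross-links collagen, was at 14.0, 13.5 and 13.6 CPM in sham and 25.5, 25.0 and 36.4 CPM in GXNI 1 to 3. The sham hearts were nearly equal, and the library labelled MIRI 2 was at 23.5 CPM, below the GXNI hearts and above sham. The log2 difference was 1.09 ± 0.19 (log2 scale, SE, edgeR adjusted p = 0.219) by the labels and 0.85 ± 0.10 (log2 scale, SE, edgeR adjusted p = 0.0480) in the published grouping, held in every fit with 1 library left out.

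Ccn2, a matricellular growth factor also known as CTGF, was at 48.0, 40.6 and 33.4 CPM in sham and 131, 222 and 745 CPM in GXNI 1 to 3. All treated hearts were above all sham hearts, and GXNI 3 was far above the other GXNI hearts. Ccn2 differed by 3.18 ± 0.65 (log2 scale, SE, edgeR adjusted p = 0.219), 9.08-fold, and by 2.30 ± 0.25 (log2 scale, SE, edgeR adjusted p = 0.0466) in the published grouping. Its call held in all 6 fits with 1 library left out, but its size ran from 2.12 (without GXNI 3) to 3.59 (without GXNI 1).

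Thbs1, thrombospondin-1, ranged widely among the treated hearts. It was at 7.09, 2.92 and 6.50 CPM in sham, at 20.9, 174 and 892 CPM in GXNI 1 to 3 and at 38.3 CPM in the library labelled MIRI 2. Every treated heart exceeded every sham heart, GXNI 1 and MIRI 2 only moderately. The difference was 6.06 ± 1.36 (log2 scale, SE, edgeR adjusted p = 0.219) by the labels, where it was lost without any 1 sham library (log2 fold change over the 6 fits 4.16 to 6.61) and fell to 4.16 without GXNI 3. The published grouping gave 3.83 ± 0.83 (log2 scale, SE, edgeR adjusted p = 0.144), lost without sham 2, and was 2.42 without GXNI 2.

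Sparc, a collagen-binding matricellular protein, was at 425, 396 and 414 CPM in sham and 687, 592 and 624 CPM in GXNI 1 to 3, a log2 fold change of 0.63 ± 0.12 (SE), with GXNI 1 the highest. It fell under the fold threshold in the published grouping at 0.53 ± 0.14 (SE), and its call by the labels was also lost without sham 3 or without GXNI 1, with a fold of like size (log2 fold change over the 6 fits 0.58 to 0.68). Spp1, osteopontin, was not called in either grouping, at 2.34 ± 1.01 (SE) by the labels and 1.58 ± 1.002 (SE) in the published grouping. Its values were 9.83, 2.18 and 11.9 CPM in sham and 3.70, 58.4 and 57.6 CPM in GXNI 1 to 3, so that GXNI 1 lay within the sham range.

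Among 20 proteases and inhibitors, 7 were called higher and 1, Timp4, lower by the labels, and 4 higher and 0 lower in the published grouping. Without 1 sham library 0 to 2 were called higher by the labels, 3 without GXNI 2 and 11 without GXNI 1, and in the published grouping 1 without sham 2 and 2 to 5 without any other library. Adamts1, a secreted protease that cleaves versican, was at 42.9, 42.8 and 37.4 CPM in sham and 134, 121 and 501 CPM in GXNI 1 to 3, with 127 CPM in the library labelled MIRI 2. GXNI 1, GXNI 2 and MIRI 2 were nearly equal at about the same distance from the sham hearts, and GXNI 3 was higher. The log2 difference was 2.63 ± 0.57 (log2 scale, SE, edgeR adjusted p = 0.219) by the labels and 1.64 ± 0.10 (log2 scale, SE, edgeR adjusted p = 0.00444) in the published grouping. By the labels the call was lost without any 1 sham library (log2 fold change over the 6 fits 1.64 to 2.97), and the value without GXNI 3 was 1.64.

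Timp1, an inhibitor of matrix metalloproteinases, was at 17.1, 8.81 and 20.1 CPM in sham and 36.5, 105 and 209.6 CPM in GXNI 1 to 3. Plaur, the urokinase receptor, was at 3.01, 2.43 and 3.84 CPM in sham and 6.14, 22.96 and 163 CPM in GXNI 1 to 3. Both followed the same order, with GXNI 1 lowest and GXNI 3 highest among the GXNI hearts and no overlap with sham. Timp1 differed by 2.94 ± 0.65 (SE) by the labels and by 1.93 ± 0.51 (SE) in the published grouping, and Plaur by 4.38 ± 1.18 (SE) and 1.99 ± 0.52 (SE). Without GXNI 3 the values were 2.21 and 2.24. By the labels Timp1 was lost without sham 1 or sham 2 (log2 fold change over the 6 fits 2.21 to 3.37) and Plaur without sham 1, sham 2 or sham 3 (log2 fold change over the 6 fits 2.24 to 4.92), and the same libraries ended the calls in the published grouping (log2 fold change over the 6 fits 1.16 to 2.21 and 1.14 to 2.31), where Timp1 was 1.16 and Plaur 1.14 without GXNI 2.

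Tgfb2, a ligand that activates fibroblasts, was at 5.42, 7.97 and 10.2 CPM in sham and 13.4, 37.1 and 54.5 CPM in GXNI 1 to 3. It did not overlap with sham and differed by 2.16 ± 0.51 (SE) by the labels, 1.69 without GXNI 3, and 1.77 ± 0.39 (SE) in the published grouping. Its call by the labels was lost without sham 1, sham 2 or GXNI 2 (log2 fold change over the 6 fits 1.69 to 2.55). Of the 17 fibroblast and myofibroblast genes, Tgfb2 and Col15a1 were called by the labels and Tgfb2 and Acta2 in the published grouping, with list medians of 0.21 and 0.07. The count higher by the labels was 0 without sham 2, 1 without sham 1, sham 3 or GXNI 2 and 4, with 3 lower, without GXNI 1, and in the published grouping 1 to 3.

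Cardiomyocyte stress genes gave high fold changes. Sprr1a, a cornified envelope precursor that stressed cardiomyocytes express, was at 0.483, 0.297 and 0.639 CPM in sham and 5.79, 14.4 and 70.4 CPM in GXNI 1 to 3, with 6.06 CPM in the library labelled MIRI 2. Sprr1a was thus very low in every sham heart and clearly raised in every treated heart. The fitted difference was 5.997 ± 1.10 (log2 scale, SE, edgeR adjusted p = 0.219), 63.9-fold, by the labels and 4.21 ± 0.50 (log2 scale, SE, edgeR adjusted p = 0.0480) in the published grouping. Its call held in all fits with 1 library left out, while its size ran from 4.41 (without GXNI 3) to 6.49 (without GXNI 1) by the labels. Sprr1a passed the low-count filter only through the treated hearts, where it was higher. That its call held over the fits adds no support for it. The gene lies at chr3:92483952-92485895 on the minus strand (GRCm38).

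Of 8 promoters read for named genes, 3 held a match to any of the 5 motifs searched and are shown, those of Sprr1a, Igtp and Irgm2. The windows of Fos, Atf3, Nr4a1, Egr2 and Kcnip2 held none. That of Sprr1a was read from RefSeq (GRCm38.p6) for chr3:92485832-92486131, minus strand, from 250 bases before to 50 after the start, and capitals mark matches to the AP-1 letters TGANTCA, searched on both strands.

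Sprr1a: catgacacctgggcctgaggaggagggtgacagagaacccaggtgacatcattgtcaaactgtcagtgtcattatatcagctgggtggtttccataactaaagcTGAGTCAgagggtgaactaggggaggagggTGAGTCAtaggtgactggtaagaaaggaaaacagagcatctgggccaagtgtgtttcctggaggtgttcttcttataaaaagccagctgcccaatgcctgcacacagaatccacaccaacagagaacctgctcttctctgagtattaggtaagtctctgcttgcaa

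Both matches read TGAGTCA and began 146 and 116 bases before the start. Of the 14695 tested genes 10718 had a promoter window in this reference. The AP-1 letters were present in 5.05% of these, in 7.88% of the 292 windows of genes called higher by the labels and in 6.02% of the 166 windows of genes called lower. The letters of the cyclic AMP response element, TGACGTCA, were in 3.16% of all windows, 4.45% of those called higher and 1.20% of those called lower. The CArG box of serum response factor was matched in 1.32%, 3.08% and 3.01%, respectively. A match is a description of the letters and was not tested as a binding site.

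Nmrk2, a muscle kinase that makes NAD from nicotinamide riboside, was at 5.64, 9.21 and 8.79 CPM in sham and 21.2, 107 and 677 CPM in GXNI 1 to 3, with 148 CPM in the library labelled MIRI 2. No treated heart overlapped with sham, but GXNI 1 was the nearest and GXNI 3 many times farther. The difference was 5.10 ± 1.24 (log2 scale, SE, edgeR adjusted p = 0.219) by the labels, lost without any 1 sham library (log2 fold change over the 6 fits 3.03 to 5.65) and 3.03 without GXNI 3, and 3.55 ± 0.65 (log2 scale, SE, edgeR adjusted p = 0.112) in the published grouping.

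Of 13 tested stretch and fetal heart genes, 1 was called by the labels (Nes) and 4 in the published grouping (Xirp1, Xirp2, Flnc and Nes), with medians of 1.85 and 1.03. Without any 1 sham library 0 were called by the labels, and 10 without GXNI 1. In the published grouping 10 were called without GXNI 1 and 1 to 2 without any other library. Nes, the intermediate filament nestin, was at 15.4, 31.6 and 26.8 CPM in sham and 49.4, 82.6 and 177 CPM in GXNI 1 to 3, a log2 fold change of 2.08 ± 0.51 (SE) by the labels, 1.43 without GXNI 3 and 1.42 ± 0.29 (SE) in the published grouping. Its call by the labels was lost without any 1 sham library (log2 fold change over the 6 fits 1.43 to 2.41). Xirp2, an actin-binding protein of the intercalated disc, was at 237, 243 and 295 CPM in sham, 295, 1287 and 3189.9 CPM in GXNI 1 to 3 and 1024 CPM in the library labelled MIRI 2. GXNI 1 was thus at the level of sham 3, and the other treated hearts were clearly above.

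Xirp2 differed by 2.64 ± 0.76 (SE) by the labels, which missed the p threshold, and by 1.75 ± 0.47 (SE) in the published grouping. Flnc, the actin cross-linker filamin C, followed the same pattern with 278, 233 and 322 CPM in sham and 288, 1274 and 3851 CPM in GXNI 1 to 3. In the published grouping the calls of Xirp2 and Flnc were each lost in 5 of 6 fits, without sham 1, sham 2, sham 3, MIRI 2 or GXNI 2, with values that ran from 1.34 (without GXNI 2) to 2.16 (without GXNI 1) and from 1.22 (without GXNI 2) to 2.05 (without GXNI 1).

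Nppb, the B-type natriuretic peptide gene, was at 10.6, 68.9 and 87.3 CPM in sham and 32.9, 374 and 2418 CPM in GXNI 1 to 3. GXNI 1 lay inside the sham range and the sham hearts differed among themselves several times over, and Nppb was not called in either grouping, at 4.10 ± 1.504 (SE) by the labels and 2.60 ± 1.04 (SE) in the published grouping. Synpo2l, a cytoskeletal protein of the Z-disc, was at 87.1, 112 and 125 CPM in sham and 129, 510.3 and 1028 CPM in GXNI 1 to 3. It was called at 2.37 ± 0.67 (SE) and, in the published grouping, 1.82 ± 0.47 (SE), but in each only with all 6 libraries or without GXNI 1. The fits without sham 1, sham 2, sham 3, GXNI 2 or the third treated library (GXNI 3 by the labels, MIRI 2 in the published grouping) missed the p threshold, and the values ran from 1.57 (without GXNI 3) to 2.85 (without GXNI 1) and from 1.53 (without GXNI 2) to 2.23 (without GXNI 1).

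The atrial markers include Nppa, and whether their sum follows atrial tissue or expression in the ventricle was not tested. Their summed CPM over 5 genes was 40.3 to 84.0 in sham, 55.9 in GXNI 1, 98.9 in GXNI 2, 728.8 in GXNI 3 and 171.2 in the library labelled MIRI 2. Bmp10, which defines atrial muscle, was at or under 3 counts in each library.

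Stress-induced secreted factors had a median log2 fold change of 3.29 by the labels with 2 of 10 tested members called higher, and 1.64 with 4 called higher in the published grouping. Without GXNI 1 the counts were 9 and 7, and without 1 sham library 0 to 1 and 0 to 2. Inhbb, a subunit of activin B, was at 4.67, 2.28 and 3.09 CPM in sham and 7.49, 18.3 and 192 CPM in GXNI 1 to 3, a log2 difference of 4.45 ± 1.26 (SE), 1.95 without GXNI 3, and 1.70 ± 0.45 (SE) in the published grouping. Its call by the labels was lost without any 1 sham library (log2 fold change over the 6 fits 1.95 to 4.99) and that of the published grouping without sham 2 or sham 3 (log2 fold change over the 6 fits 1.07 to 2.01). Hbegf, an EGF receptor ligand, was at 13.7, 14.0 and 14.3 CPM in sham and 17.5, 64.0 and 436 CPM in GXNI 1 to 3. GXNI 1 was close to sham in Hbegf and GXNI 3 far above it, and the gene was called in the published grouping alone, at 1.59 ± 0.41 (SE), a call lost in every fit with 1 library left out but that without GXNI 1 (log2 fold change over the 6 fits 1.13 to 1.96).

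Of 19 heat shock proteins and co-chaperones, only Hspb1 was called by the labels and Hspb1 and Hsp90aa1 in the published grouping, with medians of 0.63 and 0.25. Leaving out GXNI 1 gave 8 and 4 called, and leaving out any 1 sham library gave 0 in both groupings. Hspb1, a small heat shock protein of the sarcomere and cytoskeleton, was at 201, 175 and 223 CPM in sham, 225, 1180.2 and 3027 CPM in GXNI 1 to 3 and 803 CPM in the library labelled MIRI 2. GXNI 1 was within a few CPM of sham 3. The log2 difference was 2.90 ± 0.82 (SE) by the labels and 1.88 ± 0.51 (SE) in the published grouping, and each call was lost in all fits with 1 library left out but that without GXNI 1 (log2 fold change over the 6 fits 1.82 to 3.41 and 1.35 to 2.31).

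Hspa1a, an inducible HSP70 gene, was at 2.20, 1.98 and 1.97 CPM in sham and 2.50, 5.57 and 334 CPM in GXNI 1 to 3. Only GXNI 3 was far above sham, while GXNI 2 was moderately and GXNI 1 slightly above. Its log2 difference of 5.81 ± 1.92 (SE) was 0.98 without GXNI 3 and 0.86 ± 0.33 (SE) in the published grouping, and it was not called in either. Its reads may be split with Hspa1b, a near-identical paralog.

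Of 23 genes of the endoplasmic reticulum and integrated stress response, 3 were called higher and 1 lower by the labels, and 4 higher and 2 lower in the published grouping. By the labels 0 were called higher without any 1 sham library, 11 without GXNI 1 and 6 without GXNI 3, and in the published grouping 2 to 6 with 1 library left out. Herpud1, a component of endoplasmic reticulum protein degradation, fell. It was at 529.7, 280.2 and 306 CPM in sham and 203, 144 and 95.3 CPM in GXNI 1 to 3, a log2 difference of -1.33 ± 0.35 (SE) by the labels and -1.06 ± 0.26 (SE) in the published grouping. No treated heart reached the lowest sham heart, but sham 1 was far above the other sham hearts. The call by the labels was lost without sham 1, sham 3, GXNI 2 or GXNI 3 (log2 fold change over the 6 fits -1.63 to -0.99) and that of the published grouping without MIRI 2 or GXNI 2 (log2 fold change over the 6 fits -1.23 to -0.73).

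Inflammatory genes differed widely between the treated hearts. The summed CPM of 6 neutrophil markers was 24.5 to 47.1 in sham hearts, 40.2 in GXNI 1, 173.3 in GXNI 2, 537.2 in GXNI 3 and 22.9 in the library labelled MIRI 2. Therefore, GXNI 1 and MIRI 2 held neutrophil transcripts at the level of sham hearts, whereas GXNI 2 and GXNI 3 were above it. Of 16 tested neutrophil genes, 3 were called higher by the labels (S100a8, Mmp9 and Clec4d), with a median of 2.76, and 1 of 13 in the published grouping (Lcn2), with a median of 1.10. By the labels 0 were called without any 1 sham library or without GXNI 2, 13 without GXNI 1 and 1 without GXNI 3, and DESeq2 called 15 of 22. The median in the published grouping was -0.14 without GXNI 2.

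S100a8, a calprotectin subunit, was at 12.1, 9.21 and 11.8 CPM in sham, 13.4, 53.7 and 129.7 CPM in GXNI 1 to 3 and 8.55 CPM in the library labelled MIRI 2. GXNI 1 lay just above sham and MIRI 2 below it. The difference was 2.59 ± 0.73 (log2 scale, SE, edgeR adjusted p = 0.219) by the labels, and 1.21 ± 0.62 (SE) in the published grouping. Mmp9, a gelatinase stored in neutrophil granules, was at 5.85, 3.96 and 6.07 CPM in sham and 6.69, 24.1 and 36.2 CPM in GXNI 1 to 3, a log2 difference of 2.09 ± 0.58 (SE) by the labels and 1.10 ± 0.68 (SE) in the published grouping. Both calls by the labels were lost without any 1 library except GXNI 1 (log2 fold change over the 6 fits 1.61 to 3.07 and 1.55 to 2.52), and the values without GXNI 3 were 1.61 and 1.55.

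Lcn2, an iron-scavenging acute phase protein that neutrophils and injured tissue express, went the other way among the hearts. It was at 129.9, 125 and 149.9 CPM in sham, 578, 438 and 131 CPM in GXNI 1 to 3 and 206 CPM in the library labelled MIRI 2. GXNI 1 was the highest, and GXNI 3 lay at the level of sham, although its summed neutrophil markers were the highest of the GXNI hearts. Lcn2 was not called by the labels, at 1.51 ± 0.48 (SE), and was called in the published grouping at 1.60 ± 0.34 (log2 scale, SE, edgeR adjusted p = 0.138), held in every fit with 1 library left out. GXNI 1 was also the heart with the highest mesothelial markers, at a summed 77.7 CPM over 7 genes, compared with 11.2 to 26.3 CPM in sham hearts. The part of this in the Lcn2 result was not tested.

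Of 18 recruited monocyte and macrophage genes, 6 were called higher by the labels, with a median of 2.15, and 2 (Vcan and Thbs1) in the published grouping, with a median of 0.84. Thbs1 is also counted among the matrix genes, so that the lists are not separate results. The count by the labels was 0 to 1 without 1 sham library, 15 without GXNI 1, 2 without GXNI 2 and 4 without GXNI 3, and DESeq2 called 12. In the published grouping the median was -0.22 without GXNI 2, and 4 were called without MIRI 2 and 1 without sham 2. Their list median was 0.21 above the sham mean in GXNI 1, 1.69 in GXNI 2 and 2.90 in GXNI 3, and 0.27 below it in the library labelled MIRI 2. Chil3, a chitinase-like protein of monocytes, was at 3.33, 1.83 and 4.90 CPM in sham and 6.24, 44.9 and 154 CPM in GXNI 1 to 3, a log2 difference of 4.37 ± 1.11 (SE), 2.94 without GXNI 3, and 2.49 ± 0.88 (SE) in the published grouping. Msr1, a macrophage scavenger receptor, was at 8.0001, 9.16 and 9.64 CPM in sham and 14.9, 30.001 and 52.0 CPM in GXNI 1 to 3, 1.86 ± 0.43 (SE) by the labels, 1.33 without GXNI 3, and 1.05 ± 0.36 (SE) in the published grouping. Neither gene overlapped with sham by the labels, and in both GXNI 3 was highest.

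Vcan, the proteoglycan versican that monocytes and fibroblasts make, was at 18.0, 12.9 and 16.8 CPM in sham and 34.1, 51.8 and 109 CPM in GXNI 1 to 3. It was raised in every treated heart, by 2.04 ± 0.43 (SE) on the log2 scale by the labels, 1.44 without GXNI 3, and 1.29 ± 0.23 (SE) in the published grouping. Its call by the labels was lost without sham 2 (log2 fold change over the 6 fits 1.44 to 2.35), and those of Chil3 and Msr1 without sham 1, sham 2, sham 3 or GXNI 2 (log2 fold change over the 6 fits 2.94 to 4.91 and 1.33 to 2.21). Of 14 tested resident macrophage genes, 1 (F13a1) was called higher by the labels and 0 in the published grouping, and the list median was -1.11 in GXNI 3 and 0.38 in GXNI 1 relative to sham. Without GXNI 1, 3 of them were called lower and 0 higher by the labels.

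Among CC chemokines and receptors, Ccl6, Ccl9 and Ccl24 were called higher, of 14 tested by the labels and of 13 in the published grouping. Without GXNI 1, 8 were called by the labels, and DESeq2 called 7. Ccl6, a myeloid chemokine, was at 53.3, 41.2 and 47.7 CPM in sham, 123, 132 and 207 CPM in GXNI 1 to 3 and 69.7 CPM in the library labelled MIRI 2. Ccl9, its neighbour on chromosome 11, was at 31.1, 22.9 and 26.6 CPM in sham, 70.1, 81.7 and 118 CPM in GXNI 1 to 3 and 40.5 CPM in MIRI 2. In both genes each GXNI heart was clearly above sham, GXNI 1 nearly as much as GXNI 2, and MIRI 2 was the nearest to sham. Ccl6 differed by 1.71 ± 0.24 (log2 scale, SE, edgeR adjusted p = 0.205) by the labels and by 1.19 ± 0.24 (log2 scale, SE, edgeR adjusted p = 0.129) in the published grouping. Ccl9 differed by 1.75 ± 0.24 (log2 scale, SE, edgeR adjusted p = 0.205) and by 1.26 ± 0.26 (log2 scale, SE, edgeR adjusted p = 0.133).

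Ccl24, an eosinophil chemokine of macrophages, was at 0.698, 1.09 and 0.533 CPM in sham, 2.20, 4.34 and 3.19 CPM in GXNI 1 to 3 and 3.80 CPM in the library labelled MIRI 2. It was low, and raised in every treated heart without the excess of GXNI 3 seen in other chemokines. The log2 difference was 2.06 ± 0.40 (log2 scale, SE, edgeR adjusted p = 0.219) by the labels and 2.14 ± 0.38 (log2 scale, SE, edgeR adjusted p = 0.103) in the published grouping. The calls of these 3 chemokines held in every fit with 1 library left out in both groupings. Ccl2, the main monocyte attractant, was at 1.61, 4.21 and 6.23 CPM in sham and 2.90, 44.9 and 149 CPM in GXNI 1 to 3 and was not called in either grouping, at 4.04 ± 1.27 (SE) and 2.11 ± 1.05 (SE), with GXNI 1 inside the sham range.

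Cxcl2, a neutrophil attractant, was the 1 member called of 12 tested CXC chemokines and receptors by the labels, and 0 were called in the published grouping. Without GXNI 1, 8 of 13 were called by the labels and 2 of 13 in the published grouping, and DESeq2 called 5 and 0 higher. It was at 0.483, 0.594 and 0.320 CPM in sham, 0.350, 14.1 and 72.2 CPM in GXNI 1 to 3 and 0.772 CPM in the library labelled MIRI 2. GXNI 1 was at the level of sham. Its log2 difference of 5.94 ± 1.66 (SE) ran from 3.94 (without GXNI 3) to 6.52 (without GXNI 1) and was lost in every fit with 1 library left out but that without GXNI 1 (log2 fold change over the 6 fits 3.94 to 6.52). The value was 3.44 ± 1.33 (SE) in the published grouping.

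Cytokines and their signaling genes gave 3 called higher of 17 by the labels and 2 of 15 in the published grouping. Without any 1 sham library 0 were called by the labels, 13 of 20 without GXNI 1, and DESeq2 called 13 of 22. Clcf1, a cytokine of the interleukin-6 family, was at 1.77, 1.88 and 1.44 CPM in sham and 4.05, 7.49 and 31.8 CPM in GXNI 1 to 3. Tnfrsf12a, the receptor of the cytokine TWEAK, was at 10.5, 24.7 and 30.8 CPM in sham and 35.6, 169 and 471 CPM in GXNI 1 to 3. Neither overlapped with sham, and GXNI 1 was the nearest to it in both. The log2 differences were 3.09 ± 0.78 (SE) and 3.37 ± 0.91 (SE) by the labels, 1.76 and 2.22 without GXNI 3, and 1.63 ± 0.31 (SE) and 2.42 ± 0.61 (SE) in the published grouping. By the labels Clcf1 was lost without any 1 sham library (log2 fold change over the 6 fits 1.76 to 3.54) and Tnfrsf12a in each fit but that without GXNI 1 (log2 fold change over the 6 fits 2.22 to 3.88), and in the published grouping Tnfrsf12a was lost without sham 1, sham 2, MIRI 2 or GXNI 2 (log2 fold change over the 6 fits 2.06 to 2.86). Il6 was at 0.107, 0.149 and 0.533 CPM in sham and 0.599, 2.71 and 31.2 CPM in GXNI 1 to 3 and was not called, at 5.44 ± 1.61 (SE) by the labels and 2.15 ± 1.01 (SE) in the published grouping, with nearly all of its level in GXNI 3.

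Of the 20 NF-kappa-B subunits and targets, only Relb was called by the labels and only Sele in the published grouping. All 20 had a positive log2 fold change by the labels, with a median of 1.25, and 10 did not overlap with sham, where 13.8% of all genes did so. In the published grouping 18 were positive, with a median of 0.35, and 5 did not overlap, where 11.1% did so. By the labels 12 were called without GXNI 1, 4 without GXNI 3 and 0 without any 1 sham library, and DESeq2 called 9. Relb, a subunit of the noncanonical pathway, was at 5.37, 6.83 and 7.67 CPM in sham and 11.4, 17.4 and 33.7 CPM in GXNI 1 to 3, a log2 difference of 1.66 ± 0.41 (SE) by the labels and 0.93 ± 0.27 (SE) in the published grouping. The value by the labels was 1.13 without GXNI 3, and the call was lost without sham 1, sham 2, sham 3 or GXNI 2 (log2 fold change over the 6 fits 1.13 to 1.96). Sele, the endothelial adhesion molecule E-selectin, was at 0.966, 0.990 and 1.60 CPM in sham and 2.35, 4.29 and 24.03 CPM in GXNI 1 to 3, with 3.11 ± 0.91 (SE) by the labels, not called, and 1.48 ± 0.33 (SE) in the published grouping, a call lost without sham 1 or sham 2 (log2 fold change over the 6 fits 1.23 to 1.75). Nfkb1, the p105 and p50 subunit, was at 46.6, 50.4 and 50.2 CPM in sham and 50.6, 51.9 and 91.6 CPM in GXNI 1 to 3. It was raised in GXNI 3 alone and not called, at 0.41 ± 0.25 (SE) by the labels and 0.02 ± 0.10 (SE) in the published grouping.

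The study singled out further inflammatory genes. Cxcr1, a chemokine receptor of neutrophils, had 0, 1 and 1 counts in sham, 0, 1 and 9 counts in GXNI 1 to 3 and 0 counts in the library labelled MIRI 2, and was too low to be tested. Cxcr2, which binds the same chemokines, was at 3.60, 1.24 and 4.42 CPM in sham, 2.60, 16.3 and 74.0 CPM in GXNI 1 to 3 and 0.831 CPM in the library labelled MIRI 2. GXNI 1 was inside the sham range and MIRI 2 below it, and Cxcr2 was not called in either grouping, at 3.34 ± 1.14 (SE) and 1.11 ± 0.96 (SE). Ptgs2, the inducible cyclooxygenase, was at 0.859, 0.297 and 0.426 CPM in sham and 0.899, 4.29 and 50.9 CPM in GXNI 1 to 3, at 5.15 ± 1.54 (SE) by the labels and 2.19 ± 0.65 (SE) in the published grouping. Every GXNI heart was above every sham heart in Ptgs2, GXNI 1 by a small margin. Icam1, an adhesion molecule for leukocytes, was at 16.2, 11.5 and 14.3 CPM in sham and 20.7, 23.6 and 56.8 CPM in GXNI 1 to 3, and was called neither by the labels, at 1.28 ± 0.41 (SE), nor in the published grouping, at 0.37 ± 0.31 (SE).

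**Figure D3:**
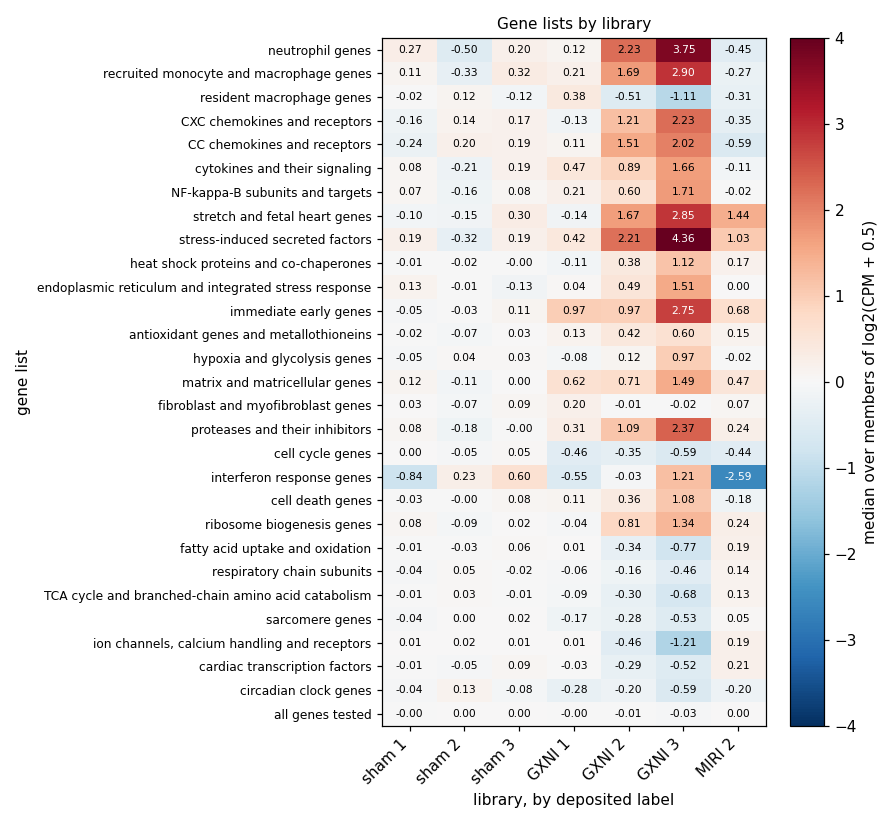
Median over the tested members of each gene list (rows) of log2(CPM + 0.5) minus the mean of the 3 sham libraries, in the sham hearts, the hearts labelled GXNI and the library labelled MIRI 2 (columns), with red for higher and blue for lower. Neutrophil genes were at 0.12 in GXNI 1, 2.23 in GXNI 2, 3.75 in GXNI 3 and -0.45 in MIRI 2, whereas immediate early genes were raised in each of these 4 libraries.

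The genes with the largest falls included Gbp10, Gbp6, Igtp and Gm4841. Guanylate-binding proteins and immunity-related GTPases are made in response to interferon gamma and restrict intracellular pathogens. They were not a list of their own, and Gbp2, Gbp5 and Irgm1 were not called by the labels. Gbp10, a guanylate-binding protein, was at 3.81, 11.8 and 27.5 CPM in sham, 0.300, 0.296 and 0.232 CPM in GXNI 1 to 3 and 0.356 CPM in the library labelled MIRI 2. Gbp6, a neighbouring paralog on chromosome 5, was at 27.0, 61.1 and 109 CPM in sham, 4.84, 6.90 and 6.68 CPM in GXNI 1 to 3 and 1.96 CPM in MIRI 2. Treated hearts were uniformly low and the sham hearts high, but the sham hearts differed among themselves, with sham 1 the lowest and sham 3 the highest. Gbp10 differed by -5.65 ± 0.83 (log2 scale, SE, edgeR adjusted p = 0.205) by the labels and -5.48 ± 0.81 (log2 scale, SE, edgeR adjusted p = 0.0740) in the published grouping, and Gbp6 by -3.41 ± 0.51 (log2 scale, SE, edgeR adjusted p = 0.205) and -3.82 ± 0.60 (log2 scale, SE, edgeR adjusted p = 0.0774). Both calls held in all fits with 1 library left out, with Gbp10 from -6.11 (without sham 1) to -4.78 (without sham 3) and Gbp6 from -3.78 (without sham 1) to -2.84 (without sham 3). Gbp10 passed the low-count filter only through the sham hearts, where it was higher. That its call held over the fits adds no support for it.

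Igtp and Irgm2, both immunity-related GTPases, overlap on chromosome 11 and may share reads. Igtp was at 51.3, 249.7 and 666 CPM in sham and 33.0, 25.8 and 31.7 CPM in GXNI 1 to 3, with 10.7 CPM in the library labelled MIRI 2. Irgm2 was at 75.1, 275 and 473 CPM in sham and 48.6, 39.7 and 49.9 CPM in GXNI 1 to 3, with 17.2 CPM in MIRI 2. Sham 1 was nearest to the treated hearts in both, and all treated hearts were below it. Igtp differed by -3.41 ± 0.83 (SE) by the labels and -3.79 ± 0.88 (SE) in the published grouping, and Irgm2 by -2.57 ± 0.60 (SE) and -2.96 ± 0.67 (SE). With 1 library left out Igtp ran from -3.92 (without sham 1) to -2.31 (without sham 3) and was lost without GXNI 1, GXNI 2 or GXNI 3 (log2 fold change over the 6 fits -3.92 to -2.31), and Irgm2 ran from -3.02 (without sham 1) to -1.92 (without sham 3) and was lost without sham 2, GXNI 1 or GXNI 2 (log2 fold change over the 6 fits -3.02 to -1.92). Igtp was lost without MIRI 2 in the published grouping (log2 fold change over the 6 fits -4.30 to -2.70).

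The promoters of Igtp and Irgm2, which were both called lower and are known targets of interferon gamma, were read from RefSeq (GRCm38.p6) for chr11:58199306-58199605 and chr11:58214727-58215026, both on the plus strand, and capitals mark matches to the letters TTCNNNGAA of the gamma-activated site or to a core of the interferon-stimulated response element (a GAAA block, any pair of bases and another GAAA block), searched on both strands.

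Igtp: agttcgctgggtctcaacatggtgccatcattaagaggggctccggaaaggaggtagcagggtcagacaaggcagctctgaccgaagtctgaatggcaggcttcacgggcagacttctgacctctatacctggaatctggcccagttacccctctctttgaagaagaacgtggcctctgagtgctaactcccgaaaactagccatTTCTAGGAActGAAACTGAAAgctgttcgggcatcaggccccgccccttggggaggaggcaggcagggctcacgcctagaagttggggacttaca

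Irgm2: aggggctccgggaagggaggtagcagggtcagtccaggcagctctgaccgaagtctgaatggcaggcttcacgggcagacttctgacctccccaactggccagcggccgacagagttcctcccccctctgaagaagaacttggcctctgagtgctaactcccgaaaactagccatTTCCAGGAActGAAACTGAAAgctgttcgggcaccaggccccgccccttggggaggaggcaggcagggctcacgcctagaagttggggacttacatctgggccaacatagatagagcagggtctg

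Each promoter held both motifs side by side, in Igtp with starts 45 and 34 bases and in Irgm2 75 and 64 bases before the start. The gamma-activated site letters were present in 6.92% of all windows, 10.2% of those of genes called lower by the labels and 6.51% of those called higher. The interferon-stimulated letters were present in 3.20%, 3.01% and 4.11%, respectively.

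Iigp1, a further GTPase of this family, was at 174, 663 and 1498 CPM in sham and 128, 74.5 and 86.5 CPM in GXNI 1 to 3, -3.004 ± 0.72 (SE) by the labels and -3.10 ± 0.70 (SE) in the published grouping. Gm4841, a predicted gene near Iigp1 on chromosome 18, was at 6.01, 53.8 and 296 CPM in sham and 1.95, 1.72 and 0.464 CPM in GXNI 1 to 3, -6.39 ± 1.47 (SE) and -6.54 ± 1.52 (SE). In both genes sham 1 was again the lowest and sham 3 the highest sham heart, and the treated hearts stayed below sham 1. Iigp1 ran from -3.48 (without sham 1) to -2.11 (without sham 3) and was lost without GXNI 2 or GXNI 3 (log2 fold change over the 6 fits -3.48 to -2.11), and Gm4841 ran from -6.96 (without sham 1) to -4.42 (without sham 3) and was lost without GXNI 1, GXNI 2 or GXNI 3 (log2 fold change over the 6 fits -6.96 to -4.42). Iigp1 was, in the published grouping, lost without MIRI 2 (log2 fold change over the 6 fits -3.58 to -2.20) and Gm4841 without MIRI 2 or GXNI 1 (log2 fold change over the 6 fits -7.10 to -4.56).

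Of 24 tested interferon response genes, 1 (Iigp1) was called lower by the labels with a list median of 0.29, and 6, among them Irf1, Gbp2 and Iigp1, were called lower in the published grouping with a median of -0.79. That count was 1 without sham 2, sham 3, MIRI 2 or GXNI 1, 4 without GXNI 2 and 7 without sham 1. The median by the labels was -0.37 without GXNI 3 and -0.04 without sham 1, and 3 were called lower without sham 1. The list median relative to the sham mean was -0.55 in GXNI 1, -0.03 in GXNI 2, 1.21 in GXNI 3 and -2.59 in the library labelled MIRI 2, and it was -0.84, 0.23 and 0.60 in sham 1 to 3.

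Lymphocyte transcripts were few. Gzma, granzyme A of cytotoxic lymphocytes, was at 1.18, 2.13 and 1.92 CPM in sham and 0.200, 0.0985 and 0.522 CPM in GXNI 1 to 3, and was lower by -2.67 ± 0.58 (SE) by the labels and -3.98 ± 0.63 (SE) in the published grouping. Its groups did not overlap, but GXNI 1 and GXNI 2 lay near 3 counts, so that the size of its fold is uncertain. By the labels the call was lost without sham 2 or sham 3 (log2 fold change over the 6 fits -3.49 to -2.26), and the value was -3.49 without GXNI 3. The summed CPM of 8 lymphocyte markers was 2.04 to 6.29 in sham hearts and 1.80 to 6.04 in GXNI hearts.

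Some cell cycle genes fell. Of 28 measured members 21 were tested, and 5 were called lower and 0 higher in each grouping, with medians of -0.47 and -0.39. Of those called in both, Top2a, Cdk1 and Aurkb passed the low-count filter only through the sham hearts. The count thus rests in part on members admitted through the group where they were higher. With 1 library left out, 3 (without GXNI 2) to 6 were called lower by the labels and 4 to 7 in the published grouping. Mki67, the proliferation marker Ki-67, was at 5.42, 3.76 and 4.85 CPM in sham, 0.749, 1.03 and 1.28 CPM in GXNI 1 to 3 and 0.475 CPM in the library labelled MIRI 2. Top2a, the topoisomerase of replicating cells, was at 2.90, 2.23 and 3.36 CPM in sham and 0.799, 0.394 and 0.348 CPM in GXNI 1 to 3. Aurkb, a mitotic kinase, was at 0.805, 0.792 and 0.906 CPM in sham and 0.0999, 0.148 and 0.0581 CPM in GXNI 1 to 3. Every treated heart was below every sham heart in these genes, and GXNI 3 was not set apart from the others.

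Mki67 differed by -2.19 ± 0.30 (log2 scale, SE, edgeR adjusted p = 0.205) by the labels and -2.61 ± 0.32 (log2 scale, SE, edgeR adjusted p = 0.0560) in the published grouping. Top2a differed by -2.43 ± 0.40 (log2 scale, SE, edgeR adjusted p = 0.219) and -2.37 ± 0.36 (log2 scale, SE, edgeR adjusted p = 0.0740), and Aurkb by -2.92 ± 0.44 (log2 scale, SE, edgeR adjusted p = 0.205) and -2.92 ± 0.44 (log2 scale, SE, edgeR adjusted p = 0.0745). The calls of these 3 genes held in every fit with 1 library left out in both groupings. Cdk1, the kinase that drives mitosis, was at 0.966, 0.743 and 0.799 CPM in sham and 0.150, 0.148 and 0.290 CPM in GXNI 1 to 3, -2.07 ± 0.42 (SE) by the labels, lost without GXNI 2 (log2 fold change over the 6 fits -2.44 to -1.90), and -2.35 ± 0.39 (SE) in the published grouping. These genes were at a few CPM or less, where the counting error is wide. Top2a, Aurkb and Cdk1 passed the low-count filter only through the sham hearts, where they were higher. In the published grouping Mki67 did so too. That a call held over the fits adds no support for them.

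**Figure D4:**
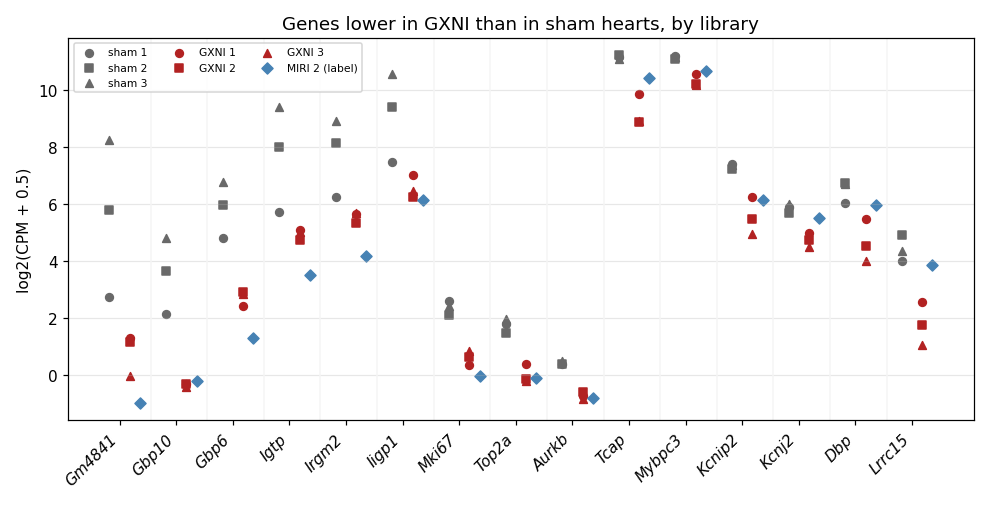
CPM of 15 genes lower in GXNI than in sham hearts in each library, as log2(CPM + 0.5) on the vertical axis, with the same colours and symbols as the plot of injury genes (grey sham, red GXNI, blue diamond the library labelled MIRI 2). Gbp10, Gbp6, Igtp, Irgm2, Iigp1 and Gm4841 spread widely over the sham hearts. Mki67, Top2a and Aurkb lay lower in each GXNI heart and in the library labelled MIRI 2.

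Among sarcomere genes, 1 of 20 was called higher (Synpo2l) and 2 lower (Mybpc3 and Tcap) in each grouping. Without GXNI 1, 6 were called lower by the labels, and in the published grouping 0 without sham 3 and 1 without sham 1 or sham 2. Tcap, the titin cap protein telethonin, was at 2233, 2356 and 2136 CPM in sham, 915, 459.6 and 474 CPM in GXNI 1 to 3 and 1363 CPM in the library labelled MIRI 2. Mybpc3, cardiac myosin-binding protein C, was at 2297, 2149.99 and 2267 CPM in sham, 1479.9, 1162 and 1131 CPM in GXNI 1 to 3 and 1605 CPM in MIRI 2. GXNI 1 and MIRI 2 were less reduced than GXNI 2 and GXNI 3 in both, and none overlapped with sham. Tcap differed by -1.86 ± 0.29 (log2 scale, SE, edgeR adjusted p = 0.210) by the labels, held in every fit with 1 library left out, and by -1.30 ± 0.34 (SE) in the published grouping, lost without sham 1, sham 2, sham 3 or GXNI 1 (log2 fold change over the 6 fits -1.70 to -0.99). Mybpc3 differed by -0.82 ± 0.15 (log2 scale, SE, edgeR adjusted p = 0.219), likewise held, and by -0.66 ± 0.14 (SE), lost without sham 3 (log2 fold change over the 6 fits -0.76 to -0.55) and, at a fold under 1.5, without GXNI 2.

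Myh6, the main myosin heavy chain of the adult mouse ventricle, was at 16456, 14448 and 15450.0 CPM in sham and 12649, 8193 and 7053 CPM in GXNI 1 to 3. All GXNI hearts were below all sham hearts, but the difference of -0.73 ± 0.23 (SE) by the labels and -0.41 ± 0.21 (SE) in the published grouping was not called.

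Ion channels, calcium handling genes and receptors changed in both directions, with 2 of 30 called higher and 2 lower by the labels, and 2 higher and 3 lower in the published grouping. By the labels 10 were called lower without GXNI 1, and 0 higher without sham 3. Kcnip2, the accessory subunit of the transient outward potassium current, was at 168, 147 and 163 CPM in sham, 74.7, 43.6 and 30.01 CPM in GXNI 1 to 3 and 69.2 CPM in the library labelled MIRI 2. Every treated heart was far below the lowest sham heart, and GXNI 3 was the lowest. The fitted difference was -1.68 ± 0.32 (log2 scale, SE, edgeR adjusted p = 0.219), 3.21-fold lower, by the labels and -1.35 ± 0.20 (log2 scale, SE, edgeR adjusted p = 0.0740) in the published grouping, held in every fit with 1 library left out in both.

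Kcnj2, the inward rectifier channel Kir2.1, was at 58.1, 50.1 and 63.2 CPM in sham and 30.4, 25.6 and 21.7 CPM in GXNI 1 to 3, -1.13 ± 0.17 (log2 scale, SE, edgeR adjusted p = 0.205) by the labels, held in every fit. In the published grouping, with 44.9 CPM in MIRI 2, it was -0.76 ± 0.21 (SE), a call lost in each fit with 1 library left out but that without MIRI 2 (log2 fold change over the 6 fits -1.02 to -0.61).

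Chrm2, the muscarinic receptor of the heart, was at 94.0, 102 and 100.002 CPM in sham, 207, 157 and 121 CPM in GXNI 1 to 3 and 215 CPM in the library labelled MIRI 2. It was highest in MIRI 2 and GXNI 1 and lowest, near sham, in GXNI 3. Chrm2 was higher by 0.72 ± 0.20 (SE) on the log2 scale by the labels and by 0.97 ± 0.13 (SE) in the published grouping. By the labels its call was lost in each fit but that without GXNI 3, with the value running from 0.51 (without GXNI 1) to 0.89 (without GXNI 3).

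Of 17 circadian clock genes, Arntl was called higher and Dbp lower by the labels, and Tef lower in the published grouping. Without GXNI 1, 8 were called lower by the labels and 3 in the published grouping, and DESeq2 called 6 and 5. Dbp, an output factor of the clock, was at 63.8, 106 and 102 CPM in sham and 42.9, 22.3 and 15.2 CPM in GXNI 1 to 3, -1.75 ± 0.40 (SE) by the labels, lost without sham 2, sham 3 or GXNI 2 (log2 fold change over the 6 fits -2.26 to -1.47), and -1.10 ± 0.35 (SE) in the published grouping. Arntl, a core activator of the clock, was at 3.06, 1.63 and 2.29 CPM in sham and 3.30, 9.61 and 15.1 CPM in GXNI 1 to 3, 2.01 ± 0.56 (SE), lost in each fit but that without GXNI 1 (log2 fold change over the 6 fits 1.48 to 2.42), and 1.33 ± 0.43 (SE) in the published grouping. Both groups were apart in each gene by the labels, with GXNI 1 nearest to sham. The hour at which each heart was taken is not given in the sources used here.

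Esrrb, an orphan nuclear receptor, was the 1 cardiac transcription factor called of 14 by the labels (3 without GXNI 1), at 34.5, 39.6 and 39.5 CPM in sham and 25.9, 17.8 and 17.6 CPM in GXNI 1 to 3, -0.88 ± 0.19 (SE) by the labels and -0.48 ± 0.24 (SE) in the published grouping. By the labels it was lost without sham 2, sham 3 or GXNI 2 (log2 fold change over the 6 fits -1.09 to -0.79).

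Of 30 genes of fatty acid uptake and oxidation, 22 respiratory chain subunits and 26 genes of the TCA cycle and branched-chain amino acid catabolism, 0 were called in either direction in either grouping at the edgeR thresholds. Without GXNI 1, 4, 0 and 4 were called lower by the labels, where 7.08% of all genes were. DESeq2 called 1, 0 and 1, where it called 1.46% of all genes lower. The list medians of the log2 fold change were -0.36, -0.22 and -0.32 by the labels and -0.04, -0.03 and -0.07 in the published grouping. By the labels 15 of the 26 TCA cycle and branched-chain genes did not overlap between the groups with GXNI lower, where 15.6% of all genes did so, and in the published grouping 1, where 11.4% did so. Dbt, the branched-chain keto acid dehydrogenase transacylase, was at 96.9, 94.5 and 95.7 CPM in sham, 68.7, 62.7 and 35.4 CPM in GXNI 1 to 3 and 96.5 CPM in the library labelled MIRI 2. It was below sham in each GXNI heart and at the level of sham in MIRI 2, with -0.78 ± 0.24 (SE) by the labels and -0.33 ± 0.16 (SE) in the published grouping. The list median of the TCA cycle and branched-chain genes was -0.09 in GXNI 1, -0.30 in GXNI 2, -0.68 in GXNI 3 and 0.13 in MIRI 2 relative to sham.

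Of 16 genes of ribosome biogenesis and 18 of cell death, 0 were called in either direction in both groupings with all libraries. Without GXNI 1, 14 and 4 were called higher by the labels and 4 and 0 in the published grouping. DESeq2 called 4 and 3 higher by the labels. Their medians were 0.86 and 0.64 by the labels and 0.37 and 0.12 in the published grouping. Of 18 antioxidant genes and metallothioneins 1 (Mt2) was called higher by the labels and 0 in the published grouping, and of 23 hypoxia and glycolysis genes 1 (Slc16a3) was called higher by the labels and 1 (Pfkfb3) lower in the published grouping. Without GXNI 1 the counts higher by the labels were 7 and 6.

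**Figure D5:**
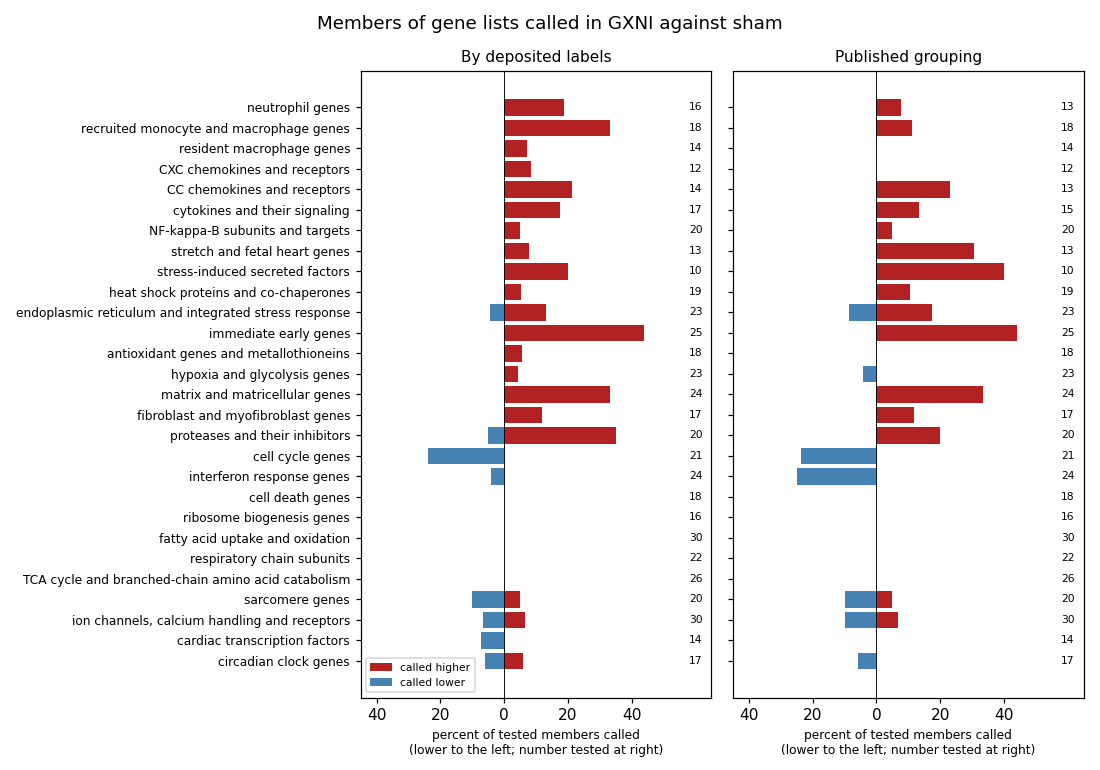
Percentage of the tested members of each gene list called higher (red, to the right) or lower (blue, to the left) in GXNI than in sham hearts, by the deposited labels (left panel) and in the published grouping (right panel), with the number of members tested at the right of each row. Immediate early genes had 11 of 25 members called higher in both, and cell cycle genes 5 of 21 called lower in both. Of these cell cycle genes, Top2a, Cdk1 and Aurkb passed the low-count filter only through the sham hearts.

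Outside these lists, further genes were named for the size of their change. Snhg11, a small nucleolar RNA host gene, was at 0.161, 0.0495 and 0.213 CPM in sham, 1.70, 2.02 and 0.929 CPM in GXNI 1 to 3 and 1.96 CPM in the library labelled MIRI 2. It was nearly silent in each sham heart and higher in each treated heart, with GXNI 3 the lowest of them. Its sham values lay near or under 3 counts, so that the size of its fold is uncertain. The difference was 3.42 ± 0.56 (log2 scale, SE, edgeR adjusted p = 0.219) by the labels and 3.70 ± 0.43 (log2 scale, SE, edgeR adjusted p = 0.0480) in the published grouping, and the call held in every fit with 1 library left out. Snhg11 passed the low-count filter only through the treated hearts, where it was higher, so that the held call adds no support. Sh2d5, an adaptor protein gene, was at 0.537, 0.198 and 0.160 CPM in sham and 1.20, 8.37 and 73.2 CPM in GXNI 1 to 3, 6.52 ± 1.65 (SE) by the labels, 3.99 without GXNI 3, and 3.55 ± 1.01 (SE) in the published grouping. By the labels it was lost without any 1 sham library (log2 fold change over the 6 fits 3.99 to 7.22), and in the published grouping without sham 1, sham 2, sham 3 or GXNI 2 (log2 fold change over the 6 fits 1.83 to 4.25), running from 1.83 (without GXNI 2) to 4.25 (without sham 1).

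Lrrc15, a leucine-rich repeat membrane protein, was at 15.3, 29.1 and 19.8 CPM in sham, 5.34, 2.81 and 1.57 CPM in GXNI 1 to 3 and 13.8 CPM in the library labelled MIRI 2. It was lower in each GXNI heart, while MIRI 2 lay just under the lowest sham heart. The difference was -2.71 ± 0.47 (log2 scale, SE, edgeR adjusted p = 0.219) by the labels, held in every fit with 1 library left out, and -1.56 ± 0.52 (SE) in the published grouping. Crb1, a polarity protein, was at 2.42, 1.09 and 1.55 CPM in sham and 0.200, 0.148 and 0.116 CPM in GXNI 1 to 3, lower in every treated heart, with -3.37 ± 0.48 (log2 scale, SE, edgeR adjusted p = 0.205) by the labels and -2.73 ± 0.50 (log2 scale, SE, edgeR adjusted p = 0.110) in the published grouping, held in every fit. Its GXNI values lay near 3 counts, so that the size of its fold is uncertain. Crb1 passed the low-count filter only through the sham hearts, where it was higher, so that a call held over the fits adds no support.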

How the data were processed

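RNA was extracted from hearts with TRIzol and sequenced, with 1 library per mouse. The authors aligned the reads with HISAT2 and counted them with featureCounts, and the build named in the submitters' processing notes is mm10. Versions, annotation release and strand setting are not given in the sources used here. The deposited values are whole-number counts of reads per gene, not normalized. Of 54532 identifiers, 54409 were named from GENCODE M21 and 123 were not.

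CPM were computed from the counts with TMM over all 9 libraries. Each grouping was fitted with edgeR 4.0.16 (R 4.3.3; TMM, default low-count filter, quasi-likelihood F test, Benjamini-Hochberg adjustment), tested first on simulated data, and with DESeq2 1.42.0 as an alternative. The p-values measure the spread between mice. Named genes were called genes with the largest changes in each direction, list members with the smallest p, list members not called with the largest change and genes the study named, of which some are printed. Members and lists were chosen with earlier results of these data known. Some genes, among them Thbs1, Timp1 and Mmp9, are counted in more than 1 list. Some list members, among them Egr2, Top2a, Aurkb and Cdk1, passed the low-count filter only through the group where they were higher. The counts and medians of their lists rest in part on such members. Columns of the study's comparisons served only to identify the second grouping. Reads of overlapping genes may be shared, whatever their strand. Some genes are not reported here.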

Additional observations from a re-analysis of the deposited data

How the results depend on the processing

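DESeq2 called 994 genes higher and 407 lower by the labels, without the low-count filter edgeR called 999 and 426 (569 and 412 in the published grouping), and all 9 libraries in 1 fit called 299 and 142. At an adjusted p of 0.05, 0 and 0 genes were called by the labels and 11 and 2 in the published grouping. Leaving out 1 library gave 83 to 1603 higher and 90 to 1062 lower by the labels, and 164 to 528 higher and 133 to 332 lower in the published grouping. Leaving out GXNI 1 gave the highest of these counts, and leaving out sham 2 or sham 3 the lowest. The cause was not tested.

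Of the printed genes, those that changed sign did so in the published grouping with 1 library left out, and none of them was called there. The log2 fold change ran from -0.40 to 2.09 for Spp1, from -0.24 to 2.61 for Ccl2, from -0.0047 to 1.61 for S100a8, from -0.14 to 1.55 for Mmp9, from -0.82 to 1.62 for Cxcr2 and from -0.026 to 0.065 for Nfkb1, with the lowest value without GXNI 2 in each. RLE normalization and leaving out mitochondrial genes changed no direction of a printed gene. With RLE normalization the calls of S100a8, Hspb1 and Mt2 by the labels were lost.

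The main fits used no pairing by replicate number. The correlations of same-numbered sham and GXNI deviations were 0.125, -0.0785 and 0.134. GXNI 1 correlated best with sham 1 and GXNI 3 with sham 3, whereas GXNI 2 correlated best with sham 3 (0.107). Such deviations, from means of 3 libraries, cannot decide whether the replicate number paired the samples. A fit with the replicate block called 342 genes higher and 231 lower by the labels. Depth of 17119454 to 22811295 reads limits genes near 3 counts, such as Cxcr1, and each SE, taken from the F test, rests on 3 mice a group.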
